A study of Mus musculus with 2 samples.

Results

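The 7 genes described here, Runx1, Runx2, Runx3, Sp7, Dlx3, Dlx5 and Mef2c, encode transcription factors of bone formation and of chondrocyte hypertrophy. They were chosen by name, and all 7 were found among the 32245 gene columns of both tables. Their levels were measured by droplet 3′ single-cell RNA sequencing of knee joints from female mice aged 1 month. One library, called control, was of genotype Stat3fl/fl, and the other, called mutant, of genotype Acan-Cre+/Cre;Stat3fl/fl, so both genotypes carried floxed Stat3 alleles. In the mutant, a tamoxifen-dependent Cre recombinase made from the aggrecan locus, which is active in chondrocytes, was induced in the first days after birth. Each library was 1 pool of a few animals, and sorting was used to deplete blood and endothelial cells. Globin transcripts were still present in 75.7% of all control and 8.43% of all mutant cells. With 1 library per genotype, no difference between genotypes could be tested, and the genotype, the pool and the library cannot be told apart.

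Runx2 and Sp7 (osterix) are the factors without which osteoblasts do not form, and Sp7 acts downstream of Runx2. Runx2 and Runx3 together also drive the maturation of growth plate chondrocytes to prehypertrophic and hypertrophic cells, and Mef2c, a MADS-box factor, is required for that step and for expression of type X collagen. Runx1 is the family member best known from blood formation and is also made in skeletal progenitors. Dlx3 and Dlx5 are homeodomain factors of the distal-less family, induced by bone morphogenetic proteins in osteoblast precursors.

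The 3 Runx genes lie on different chromosomes, Runx1 on chromosome 16, Runx2 on chromosome 17 and Runx3 on chromosome 4, but their upstream promoters hold an almost identical stretch. Runx proteins bind DNA at ACCACA, and in each of these promoters 2 copies of these letters follow each other with 2 bases between them. The sequences are shown because they are what the promoters of the Runx family share. They are from RefSeq on GRCm38.p6, read on the strand of the gene, with the copies of ACCACA in capitals:
Runx1, chr16:92826025-92826054, minus strand: cataaacaACCACAgaACCACAagttgggt
Runx2, chr17:44814583-44814612, minus strand: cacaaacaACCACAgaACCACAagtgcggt
Runx3, chr4:135120503-135120532, plus strand: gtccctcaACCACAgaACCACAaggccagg
The first copy began 28 bases after the transcription start in Runx1, 23 bases after it in Runx2, and 134 bases before it in Runx3. Among 32851 mouse promoters of 300 bases (250 before and 50 after the start), ACCACANNACCACA was found on either strand in 7, or 0.0213%, and these 3 genes account for 3 of them. The single ACCACA was present on either strand in 16.8% of promoters. The second promoter entries of Runx1 and Runx3 and the 3 entries of Mef2c lacked both. Sp7, Dlx3 and Dlx5 were not matched in the promoter table. A match describes letters only, and no binding was measured.

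Chondrocytes were the cells that the authors had marked, all of which contained Sox9 and Col2a1 and no globin transcripts. The other classes were unmarked cells with at least some transcript of both genes of exactly 1 pair: Bglap and Ibsp for osteoblasts, Adipoq and Lepr for marrow stroma, Tnmd and Thbs4 for tendon cells, and, for comparison, Rgs5 and Myh11 for mural cells and Pi16 and Dpp4 for fibroblasts. This gave 501 control and 332 mutant chondrocytes, 136 and 90 osteoblasts, 95 and 50 marrow stromal cells, and 269 and 29 tendon cells, out of 4903 and 1340 cells. Sox9 and Col2a1 were both above 0 in 1013 control and 335 mutant cells. The mark therefore left out many such cells in control and few in mutant, and those left out could enter the other classes. Markers not used for the choice followed the labels, with 9 of 9 chondrocyte, 7 of 7 osteoblast and 6 of 6 marrow stroma genes at least 2-fold above all other cells in both libraries, and 6 of 6 (control) and 4 of 6 (mutant) tendon genes. Median depth in control and mutant was 5876 and 8595 unique molecular identifiers (UMIs) per chondrocyte, 4074 and 4943 per osteoblast, 2915 and 6066 per stromal cell, and 3825 and 6411 per tendon cell. Globin transcripts were present in 54.4% to 66.3% of control osteoblasts, stromal and tendon cells but in at most 6% of mutant ones, and the summed level of 5 erythroid markers was 241 to 316 counts per 1000000 (CPM) in the former and 0 to 41.1 CPM in the latter. Stat3, the targeted gene, was at 142 CPM in control and 103 CPM in mutant chondrocytes, but 3′ counting does not read the floxed exons. Only 2 cell barcodes occurred in both libraries. The marked cells were not alike in the libraries. Their summed level of 9 chondrocyte markers was 39838 CPM in control and 27189 CPM in mutant, and that of 5 fibroblast markers 930 and 1630 CPM. In unsupervised (Leiden) clusters high for Sox9 and Col2a1, 42.8% of 1046 control and 94.9% of 98 mutant cells were marked. Most of the 332 marked mutant cells thus lay in other clusters, and chondrocyte ratios compare sets that differ in this way.

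Levels are given below as pooled CPM, the sum of a gene's estimated UMIs over the cells of a class per 1000000 UMIs of that class, and detection as the share of cells above 0. Intervals are exact 95% binomial intervals and cover counting error only. Where no cell contained a gene, the limit given is instead the share that 3 cells of the total make, and it concerns cells with a UMI, not cells expressing the gene. In sorted and dissociated cells of a class, fewer expressing cells and less RNA per cell cannot be told apart from the pooled value alone.

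Runx2 was highest in cells of the marrow and bone surface. Its level in control and mutant was 254 and 134 CPM in marrow stroma, 207 and 146 CPM in osteoblasts, 104.5 and 72.8 CPM in chondrocytes, and 21.0 and 22.1 CPM in tendon cells. Runx2 was detected in 54.4% (45.7 to 63.0) of control and 51.1% (40.4 to 61.8) of mutant osteoblasts. In marrow stroma the shares were 51.6% (41.1 to 62.0) and 52.0% (37.4 to 66.3), so these neighbours in the order overlapped. The marked chondrocytes came next with 39.9% (35.6 to 44.4) and 37.0% (31.8 to 42.5), and the tendon cells stood below all of them with 6.69% (4.01 to 10.4) and 10.3% (2.19 to 27.4).

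Sp7 had its highest level in osteoblasts, and the marrow stroma, where Runx2 was high, contained little of it. Its level in osteoblasts was 96.0 CPM in control and 104 CPM in mutant, 6.60-fold and 5.33-fold above chondrocytes of the same library, where it was 14.5 and 19.5 CPM. Marrow stroma, at 22.1 and 21.8 CPM, rested on only 4 of 95 and 5 of 50 cells. Sp7 was detected in 35.3% (27.3 to 43.9) of control and 38.9% (28.8 to 49.7) of mutant osteoblasts, against 7.58% (5.42 to 10.3) and 11.7% (8.49 to 15.7) of chondrocytes. No tendon cell contained Sp7, with 0 of 269 control cells, which allows a share of up to 1.12%, and 0 of 29 mutant cells, which allows up to 10.3%. Mural cells (0 of 45 and 0 of 30) and fibroblasts (0 of 45 and 0 of 15) also had none.

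**Figure D1:**
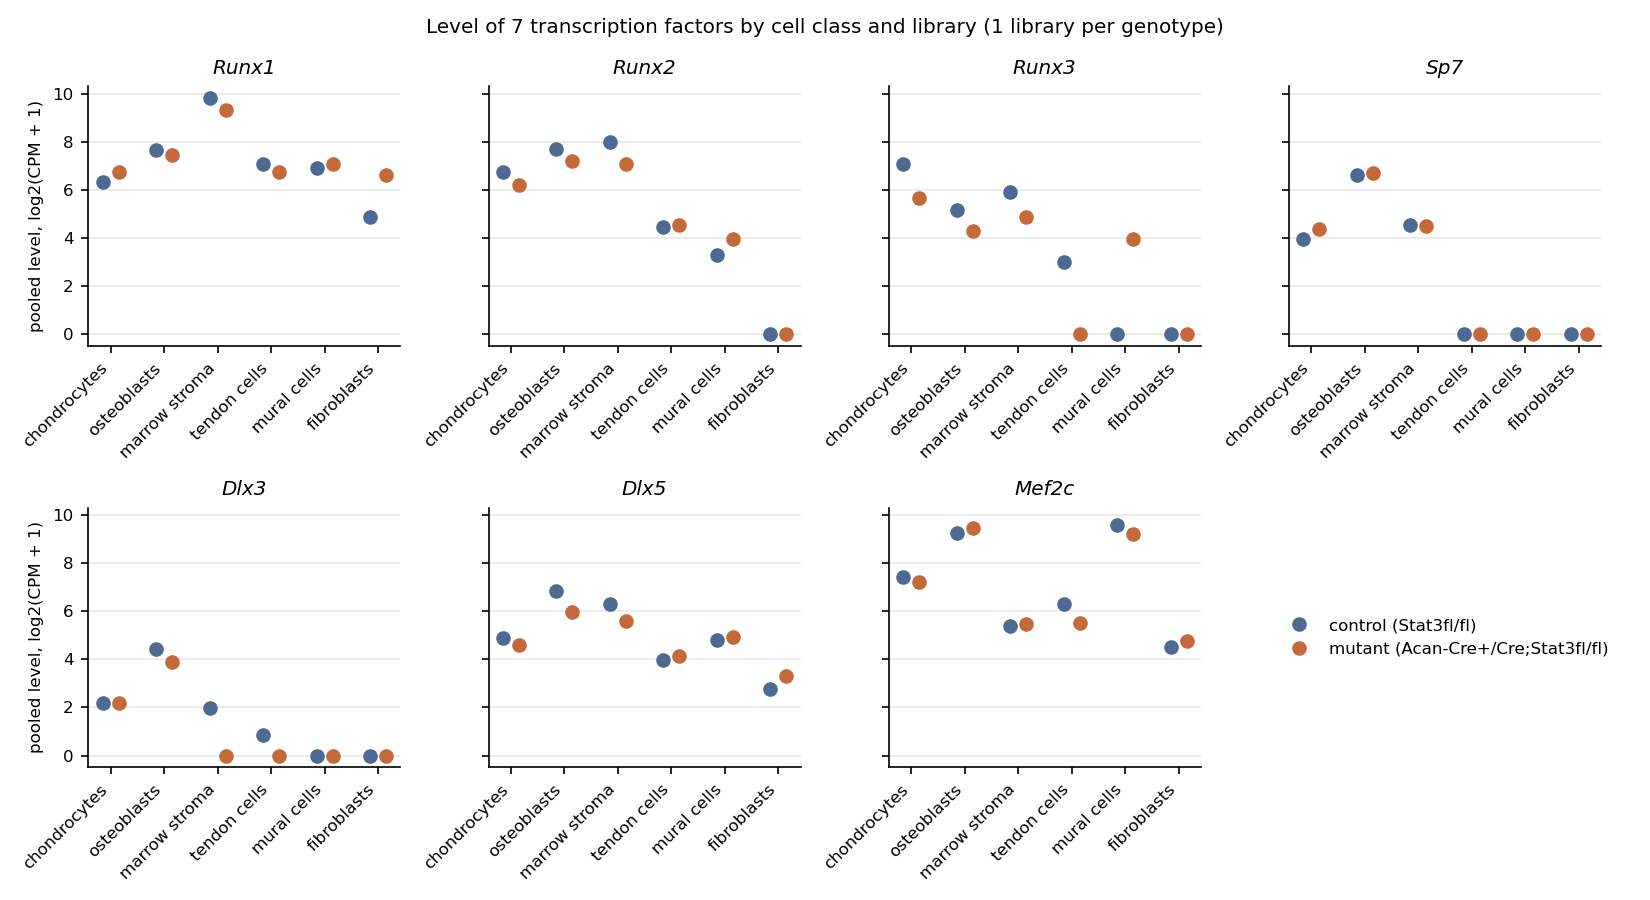
Pooled level of the 7 genes as log2(CPM + 1), with 1 point per library for each cell class; no error bar can be drawn because there was 1 library per genotype. Sp7 was high in osteoblasts, Runx1 in marrow stroma, and Mef2c in osteoblasts and mural cells.

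Runx1 was highest in marrow stroma, at 906 CPM in control and 631 CPM in mutant, and was detected in 90.5% (82.8 to 95.6) and 88.0% (75.7 to 95.5) of these cells. The stromal level was 11.4-fold and 5.93-fold that of chondrocytes. Osteoblasts followed with 203 and 175 CPM, and tendon cells (132 and 107 CPM) and chondrocytes (79.4 and 106 CPM) were lowest among the 4 classes. In the mutant the tendon and chondrocyte levels differed by less than 1 CPM, and the detected shares of tendon cells, 36.8% (31.0 to 42.9) and 27.6% (12.7 to 47.2), overlapped those of chondrocytes in the control library, 32.1% (28.1 to 36.4).

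Runx3 was the member of the family with its highest level in chondrocytes, at 133 CPM in control and 50.1 CPM in mutant. Marrow stroma had 58.6 and 28.1 CPM and osteoblasts 35.0 and 18.5 CPM, so chondrocytes led in both libraries. Runx3 was detected in 43.3% (38.9 to 47.8) of control and 28.6% (23.8 to 33.8) of mutant chondrocytes. In osteoblasts only 13.2% (8.04 to 20.1) and 11.1% (5.46 to 19.5) of cells contained it. Tendon cells were almost without Runx3, with 8 of 269 control and 0 of 29 mutant cells.

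Dlx5, like Runx2, had its 2 highest levels in osteoblasts and marrow stroma. It was at 115 CPM in control and 61.9 CPM in mutant osteoblasts, 78.9 and 46.8 CPM in marrow stroma, 28.3 and 23.1 CPM in chondrocytes, and 14.7 and 16.7 CPM in tendon cells. The detected shares were 36.0% (28.0 to 44.7) and 31.1% (21.8 to 41.7) in osteoblasts and 18.9% (11.6 to 28.3) and 26.0% (14.6 to 40.3) in stroma, and the intervals of these neighbours overlapped in both libraries. Dlx3 was the rarest member. It was present in 10 of 136 control and 7 of 90 mutant osteoblasts, at 20.5 and 14.0 CPM, and was below 10 CPM in chondrocytes (3.53 and 3.57 CPM), stroma and tendon cells.

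Mef2c was the most widely detected member in osteoblasts, in 74.3% (66.1 to 81.4) of control and 70.0% (59.4 to 79.2) of mutant cells. Its osteoblast level was 602 CPM in control and 709 CPM in mutant, and mural cells, which surround vessels and where Mef2c is known from smooth muscle, reached 771 and 588 CPM. Chondrocytes had 169 and 148 CPM, tendon cells 78.1 and 44.4 CPM, and marrow stroma 40.8 and 43.5 CPM. Marrow stroma was thus high for Runx1 and Runx2 and low for Mef2c. In mutant osteoblasts 3 cells contributed 25.8% of the Mef2c UMIs.

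**Figure D2:**
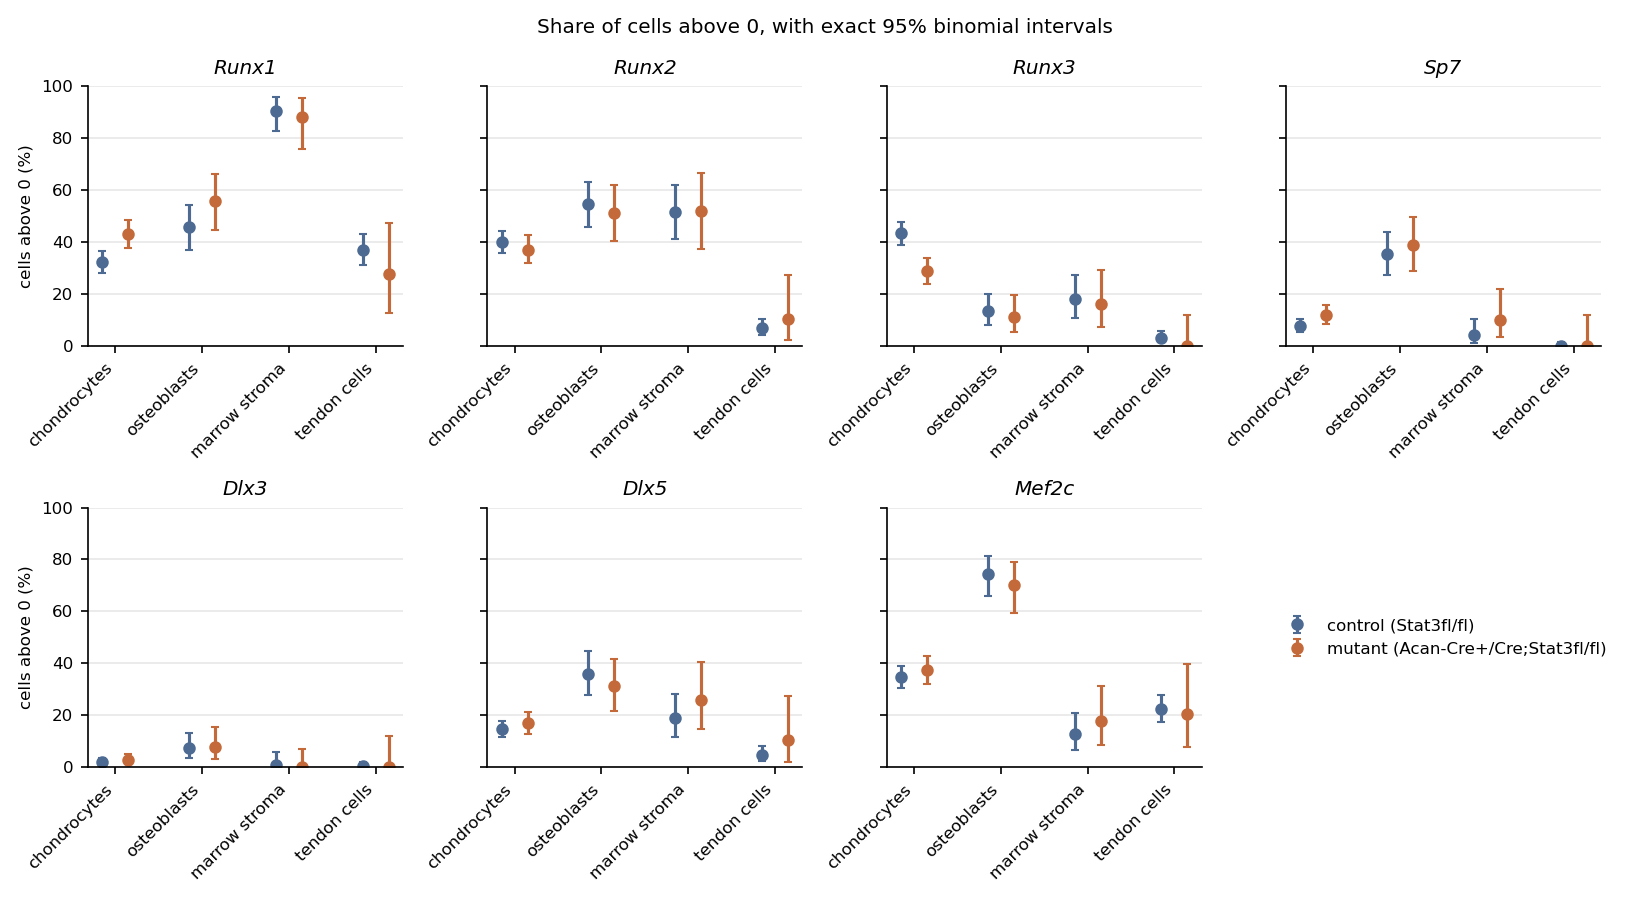
Share of cells above 0 for each of the 7 genes in 4 cell classes, in percent, with exact 95% binomial intervals for the control and the mutant library. Runx3 in chondrocytes is the panel in which the control interval (38.9 to 47.8%) lies clear above the mutant one (23.8 to 33.8%), and Runx1 in chondrocytes the one in which it lies below (28.1 to 36.4% against 37.7 to 48.6%).

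Fibroblasts, picked by Pi16 and Dpp4, served as a soft tissue class for comparison with the skeletal ones. They were few, 45 control and 15 mutant cells, with median depths of 3439 and 7061 UMIs. Runx2, Runx3, Sp7 and Dlx3 were above 0 in none of them, which allows shares of up to 6.67% in control and 20% in mutant. Dlx5 was present in 1 of 45 and 1 of 15 fibroblasts and Mef2c in 4 of 45 and 3 of 15, below their shares in osteoblasts of the same library. Runx1 was present in 5 of 45 control (11.1%) and 6 of 15 mutant fibroblasts (40%). Globin transcripts were present in 82.2% of the control and 0% of the mutant fibroblasts.

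The comparison of genotypes asked which of the factors differed between the mutant and the control library within a class. A gene was counted as apart when its pooled levels differed at least 2-fold and reached 10 CPM in either library. In chondrocytes 1 of the 6 members at this level, Runx3, was apart, against 11.2% of all 8117 genes. The log2 ratio of mutant over control was -1.39 for Runx3 in chondrocytes, and 1.92% of all tested genes had a ratio as low or lower. The share of chondrocytes with Runx3 was 14.7 percentage points lower in the mutant (interval 8.06 to 21.0 points, Newcombe, counting error only), although mutant chondrocytes had the higher median depth. When every cell of at least 1000 UMIs was thinned to 1000 UMIs, 11.03% of control and 4.58% of mutant chondrocytes retained Runx3. Cells over 5% mitochondrial counts were 3.99% of control and 20.2% of mutant chondrocytes, and without them the log2 ratio was -1.38. With classes taken from Leiden clusters in place of the authors' mark, on 1046 control and 98 mutant cells, it was -0.82 and Runx3 was no longer 2-fold apart.

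None of the other members reached 2-fold in chondrocytes. Runx2 had a log2 ratio of -0.52, with shares that differed by -2.87 points (-9.51 to 3.90). Runx1 had a log2 ratio of 0.42 and was detected in 43.1% of mutant against 32.1% of control chondrocytes, a difference of 10.9 points (4.23 to 17.6). After thinning to 1000 UMIs, which takes away the greater depth of the mutant cells, the Runx1 shares were 8.46% in control and 10.9% in mutant. Dlx5 and Mef2c had log2 ratios of -0.29 and -0.19. Beside these values stands the median log2 ratio of -0.16 over the 6911 genes that reached 10 CPM in both libraries.

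For Sp7 and Mef2c the chondrocyte values depended on a few marked cells that also contained both osteoblast genes. Bglap and Ibsp were both above 0 in 6 of 501 control (1.20%) and 27 of 332 mutant (8.13%) marked cells. In these 27 mutant cells Sp7 was at 90.7 CPM and Mef2c at 718 CPM. Without such cells Sp7 was at 14.2 CPM in control and 13.7 CPM in mutant chondrocytes, where over all marked cells it had been 14.5 and 19.5 CPM. Mef2c was then at 169 and 102 CPM, a log2 ratio of -0.73. Runx3 stayed apart without them, at 135 and 50.3 CPM. Over all 332 marked mutant cells, the doublet caller Scrublet called 1. Whether the 27 cells are single cells with both programs, doublets or carry free RNA was not tested further.

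Within the marked cells the factors varied with the zone genes. The cells were split, after the values above had been seen, into those with Ihh or Col10a1 and no Prg4 (26 control and 10 mutant cells), those with Prg4, the lubricin gene of the joint surface (120 and 136), and those with none of the 3 (355 and 186). Ihh marks prehypertrophic and Col10a1 hypertrophic chondrocytes. The Prg4 cells were thus 24.0% of control and 41.0% of mutant marked cells, and the libraries differed in this detected share. The groups rest on detection above 0, and median depth was 5876 UMIs in control and 8595 in mutant marked cells. A difference in depth and one in composition cannot be told apart from these shares.

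In the control library Runx2, Runx3 and Mef2c were found most often in the Ihh or Col10a1 cells. Runx3 was detected in 80.8% (60.6 to 93.4) of them, in 51.0% (45.7 to 56.3) of the cells with none of the 3 genes and in 12.5% (7.17 to 19.8) of the Prg4 cells. For Runx2 the same shares were 69.2%, 45.4% and 17.5%. Mef2c was above 0 in 19 of 26, 119 of 355 and 36 of 120 of these cells. In the mutant library Runx2 had 70.0% (34.8 to 93.3), 43.5% (36.3 to 51.0) and 25.7% (18.6 to 33.9), in the same order. The order of the first pair of groups turned by level, at 78.9 and 90.4 CPM, and after thinning to 1000 UMIs, at 6.63% and 7.91%, so the mutant gave no order between the 10 Ihh or Col10a1 cells and the cells with none of the 3 genes. Sp7 was above 0 in 5 of 26, 30 of 355 and 3 of 120 control cells and in 4 of 10, 28 of 186 and 7 of 136 mutant cells. Runx1 was above 0 in 38.5% (20.2 to 59.4), 29.3% (24.6 to 34.3) and 39.2% (30.4 to 48.5) of these groups in control, with intervals that overlapped. In the mutant Runx1 was above 0 in 2 of 10 cells (2.52 to 55.6%), 38.7% (31.7 to 46.1) and 50.7% (42.0 to 59.4), which also overlapped.

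The lower Runx3 of the mutant was present within the cells that lacked all 3 zone genes, at 148 CPM in control and 59.3 CPM in mutant, with 51.0% (45.7 to 56.3) and 34.4% (27.6 to 41.7) of cells above 0. In the small Ihh or Col10a1 group it was 220 and 92.5 CPM, from 21 of 26 and 5 of 10 cells. In Prg4 cells Runx3 was low in both libraries, at 38.3 and 31.99 CPM, and the detected shares of 12.5% and 19.1% (12.9 to 26.7) overlapped. The same split left Runx2 of the cells without zone genes at 113 and 90.4 CPM.

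**Figure D3:**
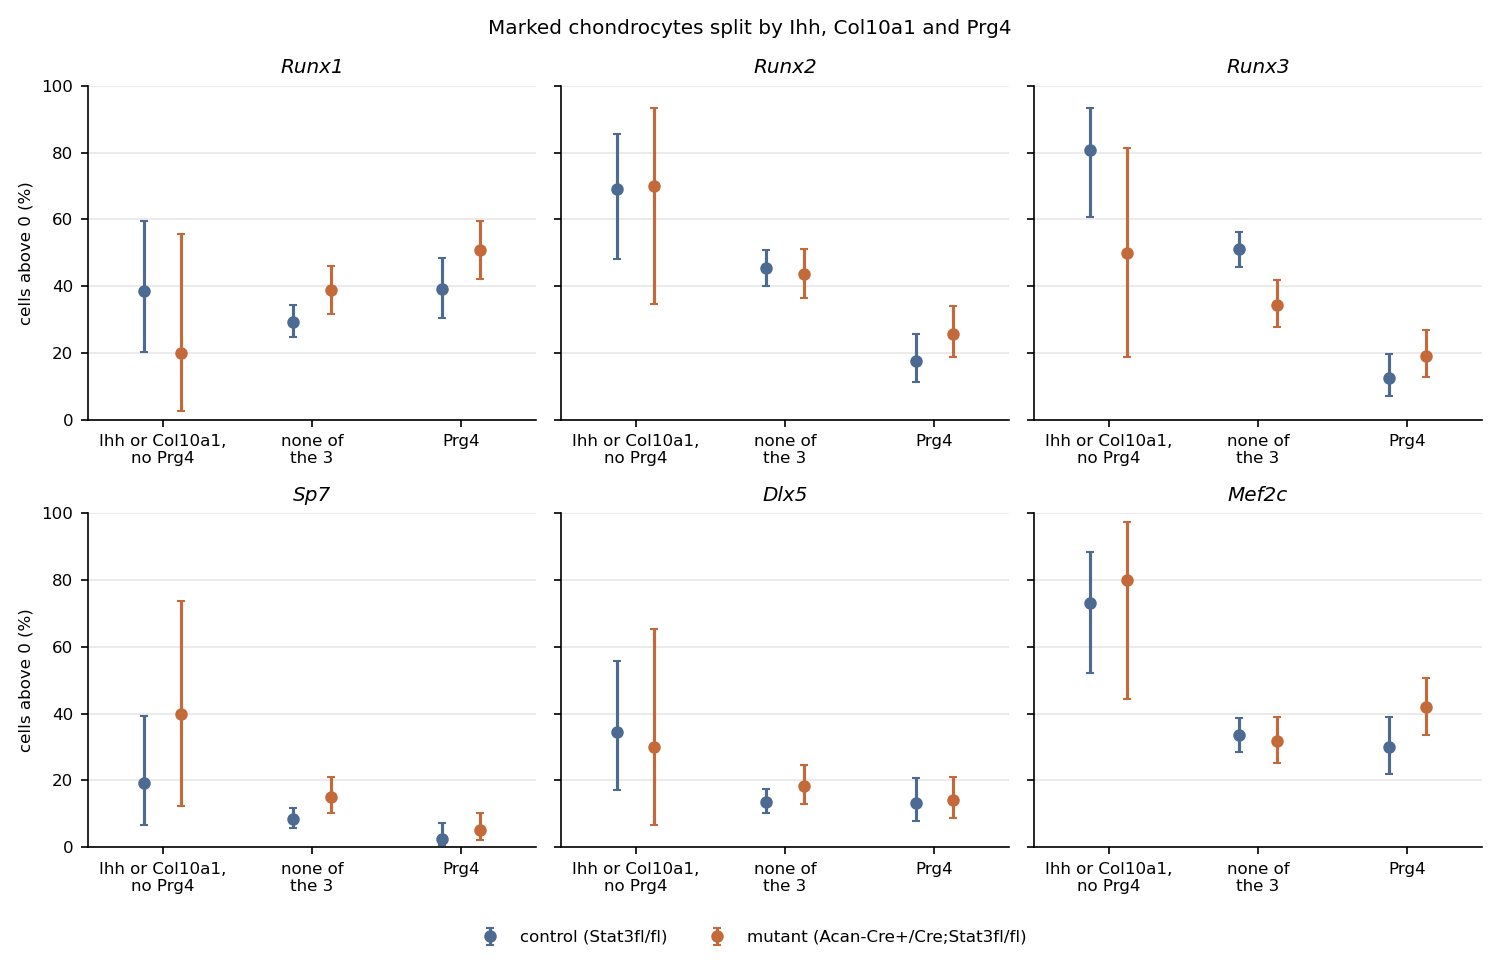
Share of marked chondrocytes above 0 for 6 of the genes, in percent with exact 95% binomial intervals, after a split by Ihh, Col10a1 and Prg4 that was chosen after the class values were seen. Runx2 and Runx3 were detected least often in Prg4 cells of both libraries, and the Runx3 intervals of the 2 libraries are separate in the middle group (45.7 to 56.3% and 27.6 to 41.7%).

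In osteoblasts 0 of 7 members were 2-fold apart, where 25.3% of 8427 genes were. Runx3 and Dlx5 came closest with log2 ratios of -0.88 and -0.88. Sp7 at 0.11 and Mef2c at 0.24 were the only members with a higher value in the mutant. By the mean of single-cell CPM Runx3 and Dlx5 passed 2-fold, and among cells of at most 5% mitochondrial counts Dlx3 and Dlx5 did.

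In marrow stroma 1 of 6 members, Runx3, was apart with a log2 ratio of -1.04, against 30.1% of 9622 genes. This value rested on 17 control and 8 mutant cells, and it turned to 0.10 in stromal cells without a globin UMI. Runx2 in stroma had a log2 ratio of -0.92, with almost equal shares of 51.6% and 52.0%, while the median depth of these cells was 2915 UMIs in control and 6066 in mutant. In tendon cells 0 of 4 members at this level were apart, against 34.8% of 9290 genes. Because 29 mutant tendon cells were measured, each share there had a wide interval, such as 7.99 to 39.7% for Mef2c. The globin difference between libraries ran with all 3 of these classes, and its part in the ratios was not tested other than by leaving out cells with globin. Cartilage transcripts differed too. In control and mutant, the summed level of 9 chondrocyte markers was 2157 and 101 CPM in marrow stroma. It was 3854 and 1269 CPM in tendon cells and 7761 and 6117 CPM in osteoblasts. Runx3 was highest in chondrocytes, and the part of cartilage RNA in its ratios here was not tested.

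Co-detection was examined in single cells, for each pair of factors, beside the product of their single shares. In osteoblasts Runx2 and Sp7 were both above 0 in 32 of 136 control cells, or 23.5% (16.7 to 31.6), where the product was 19.2%. In the mutant it was 26 of 90 cells, or 28.9% (19.8 to 39.4), where the product was 19.9%. Both products lay inside the intervals, in the mutant just above the lower bound. The shares of the 2 libraries overlapped. Most Sp7 cells had Runx2, with 66.7% (51.6 to 79.6) in control and 74.3% (56.7 to 87.5) in mutant osteoblasts, against 47.7% (37.0 to 58.6) and 36.4% (23.8 to 50.4) of the cells without Sp7. Of Runx2 osteoblasts, 43.2% (31.8 to 55.3) in control and 56.5% (41.1 to 71.1) in mutant had Sp7, against 25.8% (15.5 to 38.5) and 20.5% (9.80 to 35.3) of those without Runx2. The intervals of cells with and without the other factor were thus separate in the mutant and overlapped in control.

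Osteoblasts with Runx2 and those with Sp7 were deeper than osteoblasts without the same gene. Control osteoblasts with Sp7 had a median of 5524 UMIs and those without it 3570, and in the mutant the medians were 10853 and 2910. Thinned to 1000 UMIs, 1.85% of control and 1.66% of mutant osteoblasts were expected to keep both Runx2 and Sp7, where the thinned products were 1.78% and 1.31%.

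In control chondrocytes Runx2 and Runx3 had the highest share of cells with both genes of a pair, and in the mutant Runx1 and Mef2c were together in as many cells, 59. Runx2 and Runx3 were above 0 in 124 of 501 control cells, or 24.8% (21.0 to 28.8), where the product was 17.3%, and in 59 of 332 mutant cells, or 17.8% (13.8 to 22.3), where it was 10.6%. Of control chondrocytes with Runx2, 62.0% (54.9 to 68.8) had Runx3, against 30.9% (25.7 to 36.5) of those without. In the mutant these shares were 48.0% (38.9 to 57.2) and 17.2% (12.4 to 23.0). Median depth was 7389 UMIs in control chondrocytes with Runx2 and 5159 in those without. After thinning to 1000 UMIs the pair was expected in 1.27% of control cells, where the product was 0.985%, and in 0.415% of mutant cells, where it was 0.295%. Runx2 and Mef2c then came out higher, in 1.56% of control and 0.989% of mutant cells, with products of 1.06% and 0.683%. In control, Runx3 and Mef2c were also above Runx2 and Runx3, at 1.46% with a product of 1.31%. In the mutant, Runx1 and Mef2c had the highest thinned share, 1.13%, just below their product of 1.15%. Further mutant pairs also exceeded Runx2 and Runx3, such as Runx1 and Runx2 at 0.873%.

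Pairs with and without Runx1 were counted apart, and Dlx3 was left out because each of its pairs rested on at most 6 chondrocytes of a library. This split was not planned beforehand, and pairs of other genes of like detection were not counted for comparison. Control chondrocytes with 0 of the 7 factors had a median of 4555 UMIs, and those with 5 had 8999. The part of depth in the counts was not tested other than by thinning. Over the 10 pairs of Runx2, Runx3, Sp7, Dlx5 and Mef2c, the interval of the measured share lay above the product for 9 in control and 7 in mutant chondrocytes, and over the 5 pairs that contained Runx1 it did so for 0 in either library. The thinned shares of the 10 pairs were above their products for 10 in control and 8 in mutant, and those of the 5 pairs with Runx1 for 1 and 3. In osteoblasts the interval lay above the product for 0 of the 10 pairs in control and 3 in mutant. Runx1 and Runx3 were together in 12.8% (9.98 to 16.0) of control chondrocytes, where the product was 13.9%. Sp7 and Dlx5 were together in 5.42% (3.25 to 8.43) of mutant chondrocytes, where the product was 1.98%. Of the 38 control chondrocytes with Sp7, 81.6% (65.7 to 92.3) had Runx3 and 57.9% (40.8 to 73.7) had Runx2. Of the 39 in the mutant, 43.6% (27.8 to 60.4) had Runx3 and 74.4% (57.9 to 87.0) had Runx2.

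**Figure D4:**
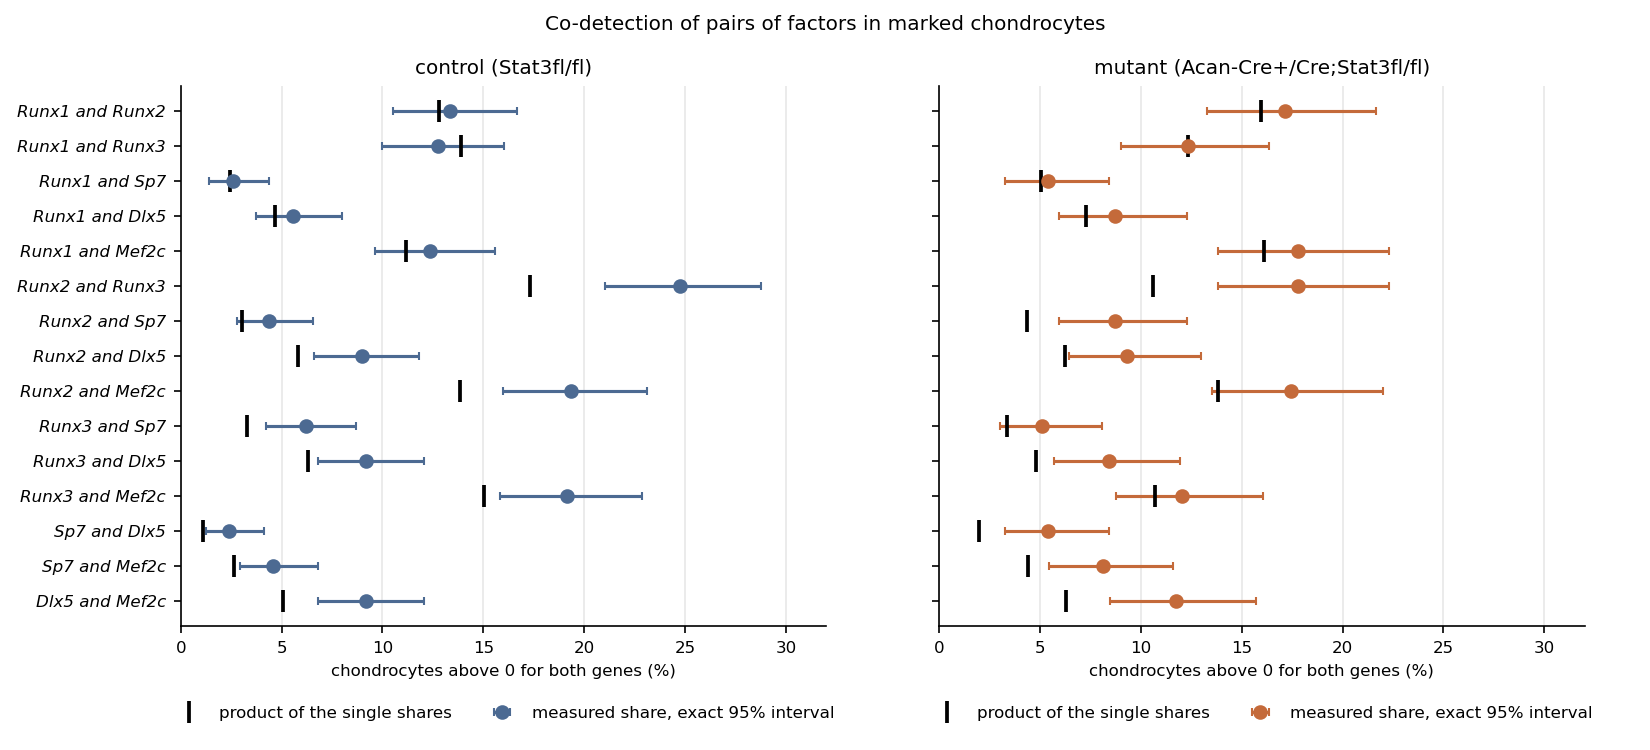
Share of marked chondrocytes above 0 for both genes of a pair, in percent, for 15 pairs in the control and the mutant library; points are measured shares with exact 95% binomial intervals, and black ticks the product of the single shares. The tick lies inside the interval for all 5 pairs with Runx1 in both libraries and outside it for Runx2 with Runx3 (17.3% against 21.0 to 28.8% in control).

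In all, chondrocytes contained a mean of 1.74 of the 7 factors per cell in control and 1.77 in mutant, osteoblasts 2.66 and 2.66, marrow stroma 1.97 and 2.10, and tendon cells 0.740 and 0.690. Chondrocytes without any of the 7 made up 19.2% of control and 19.6% of mutant ones. In osteoblasts this was 7.35% and 16.7%, and these cells had median depths of only 1394 and 1370 UMIs. A single mutant chondrocyte held all 7 factors, at 20956 UMIs.

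Genes on which these factors are known to act were compared between cells with and without a member. Pth1r, the receptor for parathyroid hormone-related protein and a mark of prehypertrophic cells, went with Sp7 and Mef2c in chondrocytes. Among control chondrocytes it was present in 78.9% of those with Sp7 and 38.9% of those without, and at 1000 UMIs in 32.5% and 12.004%. In the mutant the shares were 76.9% and 34.5%, and 24.6% and 8.53% after thinning. With Mef2c the level of Pth1r was 410 CPM against 80.1 CPM without it in control, and 232 against 68.2 CPM in mutant chondrocytes. Col10a1 was concentrated in cells with Runx2, at 188 CPM with Runx2 against 1.71 CPM without it in control and 958 against 1.26 CPM in mutant, from 9 of 200 and 6 of 123 cells with Runx2, but 3 cells of each library held 97.0% and 99.8% of its UMIs. The contrast in level therefore shows where those cells fell. Ihh was found with Mef2c in all 9 mutant chondrocytes that contained Ihh. In control, 16 of the 26 cells with Ihh or Col10a1 and no Prg4 contained Ihh, and 19 of the 26 contained Mef2c. These counts do not say how many control cells held both.

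Osteoblasts without Mef2c differed from those with it in the osteoblast genes Bglap, Ifitm5 and Phex. These genes do not stand for all late osteoblast genes, such as Dmp1, for which no values are given here. Bglap, which encodes osteocalcin, was at 17245 CPM in the 101 control osteoblasts with Mef2c and 1627 CPM in the 35 without, and at 56222 and 2801 CPM in the 63 and 27 mutant cells. Ifitm5, a membrane protein of mineralizing osteoblasts, was detected in 45.5% and 2.86% of the control cells and in 54.0% and 11.1% of the mutant cells. At 1000 UMIs the Ifitm5 shares were 22.3% and 1.956% in control, and 20.2% and 12.9% in mutant. Cells below 1000 UMIs were left out of these shares. Of the cells without Mef2c, 30 of 35 control and 19 of 27 mutant ones remained. Phex, an endopeptidase of the osteocyte lineage, was present in 26.7% and 2.86% of the control cells, and in 44.4% and 3.70% of the mutant ones.

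Alpl, the early alkaline phosphatase gene, did not follow this order. It was at 1005 CPM with Mef2c and 1241 CPM without in control, and at 673 and 876 CPM in mutant osteoblasts. The cells without Mef2c were shallower, with medians of 2963 against 4832 UMIs in control and 1682 against 7941 in mutant, and 34.3% against 10.9% of the control cells exceeded 5% mitochondrial counts. In control 65.7% of the cells without and 50.5% of those with Mef2c contained globin transcripts. The part of free Bglap and Ibsp RNA in the choice of the cells without Mef2c was not tested.

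**Figure D5:**
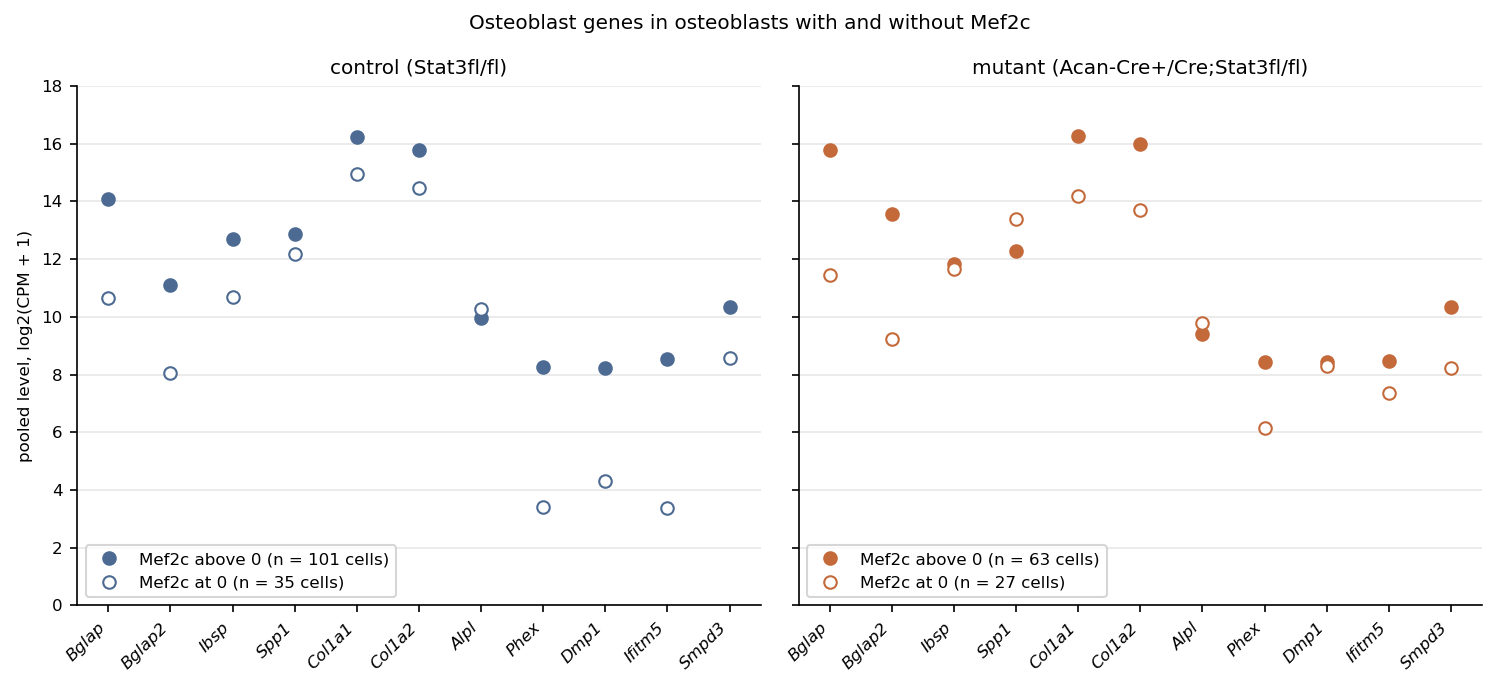
Pooled level of 11 osteoblast genes as log2(CPM + 1) in osteoblasts above 0 for Mef2c (filled points) and at 0 for it (open points), per library and without error bars because each point is 1 pool of cells. Bglap, Bglap2, Phex, Ifitm5 and Smpd3 were lower without Mef2c in both libraries, and Alpl was not. The remaining plotted genes are not described in the text, so no common direction is stated for them.

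Partners and targets were followed as lists. Of 19 partners and regulators, 14 reached 10 CPM in chondrocytes, with 1 at least 2-fold higher and 1 lower in the mutant and a median log2 ratio of -0.39, beside -0.18 over all tested genes, of which 11.2% were apart. Twist1, an inhibitor of Runx2 function, was the higher one, at 21.13 CPM in control and 72.0 CPM in mutant chondrocytes. Hdac4, which restrains Runx2 and Mef2c, was the lower one, at 62.8 and 25.7 CPM. Twist1 was 2-fold or more higher also in mutant osteoblasts (93.8 and 295 CPM), marrow stroma (62.8 and 128 CPM) and tendon cells (114 and 230 CPM). Cbfb, the common partner subunit of all Runx proteins, was at 51.3 and 47.0 CPM in chondrocytes and 80.6 and 88.1 CPM in osteoblasts.

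Of 15 osteoblast target genes, 10 reached 10 CPM in chondrocytes, of which 5 were at least 2-fold higher and 1 lower in the mutant, with a median log2 ratio of 1.12. Over all 8117 genes 371 were higher and 538 lower, with a median of -0.18. Bglap was at 491 and 3040 CPM and Spp1, the gene of osteopontin, at 179 and 1177 CPM. Panx3, a channel of prehypertrophic cells and osteoblasts, was the lower one at 159 and 60.6 CPM. Bglap and Ibsp are also the genes of the 27 marked mutant cells described above, so these levels share those cells. In osteoblasts themselves 13 of the 15 were tested, with 2 higher, 1 lower and a median log2 ratio of 0.03, beside 558 higher, 1574 lower and a median of -0.29 over 8427 genes. In marrow stroma 6 of 10 were lower and 1 was higher, beside 1812 lower and 1085 higher of all 9622 genes.

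Of 10 hypertrophic target genes, 9 reached 10 CPM in chondrocytes, with 4 at least 2-fold higher and 0 lower and a median log2 ratio of 0.62, beside the same 371 higher and 538 lower of 8117 genes. The 4 were Col10a1, Cd200, Ibsp and Spp1, of which Ibsp and Spp1 are also in the osteoblast list and Ibsp is a gene of the 27 marked cells. Col10a1 was at 92.1 CPM in control and 475 CPM in mutant, was above 0 in 13 and 9 cells, and had 97.0% and 99.8% of its UMIs in 3 cells of each library. Ihh, which is produced under Runx2 and Runx3, was at 8.70 and 9.76 CPM. Ptch1, the receptor and target of hedgehog signals, was at 175 and 96.3 CPM, a log2 ratio of -0.86, and Pth1r at 221 and 141 CPM.

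The genes closest to each factor across the 12 class-by-library profiles of 6 classes were found by Pearson's r of log2(CPM + 1), over 6345 genes, as a description of profiles that share libraries. Sp7 was closest to Vdr (0.99), the vitamin D receptor gene, then Irx5 (0.95) and Ibsp (0.95). Runx2 was closest to Rgs3 (0.93), Spp1 (0.92) and Slc31a1 (0.91). Runx3 was nearest to Hist1h2bc (0.91), Ptch1 (0.87) and Dyrk1a (0.87), and Runx1 to Kalrn (0.90), Cebpa (0.89) and Trappc10 (0.89). Dlx3 had Bglap (0.90), Bglap3 (0.89) and Ibsp (0.88), Dlx5 had Fat1, Rgs3 and Alpl (0.90, 0.90 and 0.89), and Mef2c had Ramp1, Emid1 and Gprc5c (0.92, 0.90 and 0.90). Within the group, Runx2 and Dlx5 had an r of 0.88 and Runx1 and Mef2c one of 0.02. Bglap and Ibsp were also used to choose the osteoblasts.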

How the data were processed

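Female knee cells were sorted and sequenced with the 10x 3′ v3.1 chemistry, 1 library per genotype, and the authors aligned reads to mm10 with STAR 2.7.3a in Partek Flow and removed ambient RNA with SoupX. Gene values were deposited on the log2(CPM + 1) scale for each cell. The authors also gave a total count per cell, an estimated count after ambient removal, the percent of mitochondrial and ribosomal counts, and the number of expressed genes, a score. Estimated UMIs were recovered as (2 to the value, minus 1) times the total per 1000000. Of values above 0, 74.9% in control and 97.3% in mutant lay within 0.1 of whole, so no count model was used.

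UMIs were summed per class and library, and mutant over control ratios took a pseudocount of 1 CPM. Shares have exact Clopper-Pearson intervals at 95%. Thinning used exact hypergeometric expectations on rounded values. Unmarked cells passing several pairs, 33 control and 6 mutant, were left out. The class of 1 further pair, and 1 gene of the list of partners, are not reported here. The genes and lists, and the rule for named genes (members, gate genes, lists, and the 3 genes closest to each member by r among those with a mean of at least 20 CPM), were chosen with earlier results of these data known. Doublets were kept. Scrublet (scanpy 1.11.5) called 74 control and 2 mutant cells, and these were left out only as an alternative. Runx2 lies on mm10 chr17:44495987-44814797, minus strand, over Supt3 and 3 antisense genes. Whether the counting used strand is not given in the sources used here. The ratio and thinning code was tested on simulated data.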

Additional observations from a re-analysis of the deposited data

Results flagged for a closer look

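Runx2os1, a non-coding gene on the strand opposite Runx2 and inside its span, took no part in the comparisons. It was above 0 in 23 of 332 mutant chondrocytes, or 6.93% (exact 95% interval 4.44 to 10.2), and in 11 of 501 control chondrocytes, or 2.20% (1.10 to 3.89), which stood out because the mutant interval lay above the control one. Several antisense genes were looked at in each class, and only this direction was flagged. How many other genes show such a gap was not counted. Mutant chondrocytes were also deeper, with medians of 8595 against 5876 UMIs. In estimated UMIs this was 24.9 and 11.8, or 8.13 and 3.85 CPM, below the 10 CPM used elsewhere. After thinning to 1000 UMIs the shares were 0.674% and 0.452%. It was also above 0 in 4 of 50 mutant and 0 of 95 control stromal cells. Runx2 itself had a log2 ratio of -0.52 in the same chondrocytes. Where strand was not used in counting, reads of Runx2 and Runx2os1 cannot be told apart.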

How the results depend on the processing

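No replicate could be left out, and no paired analysis was possible because each genotype had 1 library. In chondrocytes Runx3 was the 1 member apart under 12 of 13 alternative settings and under a split added after seeing the data (marked cells without Prg4, Ihh and Col10a1), with log2 ratios between -1.44 and -0.82 over all of them. Among these settings, leaving out cells with globin changed no chondrocyte, so its outcome was fixed. Pseudocounts of 0.1 and 10 CPM and the lack of an expression minimum kept the same cells and pooled levels, so they say little about this count. Leaving out Scrublet doublets removed only 6 control and 1 mutant chondrocytes. For the 2-fold counts and ratios, the thinned setting removed no UMIs. It was the mean of single-cell CPM over cells of at least 1000 UMIs, here 488 control and 320 mutant chondrocytes. It thus nearly repeated the setting of per-cell means. With classes from Leiden clusters the count was 2 (Dlx5 and Mef2c), on 1046 control and 98 mutant cells. In osteoblasts the count of 0 became 2 by per-cell means and 2 with a gate of at least 2 estimated UMIs. At 5% mitochondrial counts or less it was also 2, and it was 1 with the thinned setting and with Leiden classes. In marrow stroma the count of 1 became 2 by per-cell means, with no expression minimum and without Scrublet doublets. It became 3 with the thinned setting and without globin cells. A pseudocount of 10 CPM, median-of-ratios scaling and Leiden classes each gave 0. Runx3 in stroma turned from -1.04 to 0.10 (log2) without globin cells. At 5% mitochondrial counts or less the 1 stromal member was Runx2. In tendon cells the count of 0 became 1 with no expression minimum (Runx3), with the stricter gate (Runx2) and at 5% mitochondrial counts or less (Runx2). The share of osteoblasts with Runx2 and Sp7 was 33.8% (control) and 41.7% (mutant) with the stricter gate, 32.3% in control cells without globin, and 1.85% and 1.66% after thinning. The cause of these changes was not tested, other than that thinning lowers detected shares by construction. The mutant tendon and stromal values rest on 29 and 50 cells, and each detected share is limited by the depth of its cells.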
